A study of Homo sapiens with 39 samples.

Results

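U2AF1 clusters in coding exons are the stretches that PAR-CLIP of U2AF1 marked on RNA and that the authors annotated as protein-coding sequence. They were taken as every cluster that the authors' 3 deposited PAR-CLIP lists assign to the class coding, which gave 46575 of 148336 clusters. The list from cytoplasm of cells with S34F U2AF1 held 7645 coding clusters of 28828, the list from cytoplasm of cells with wild-type (WT) U2AF1 held 8645 of 26613, and the list from chromatin of WT cells held 30285 of 92895. The clusters lay in 7321 named genes, which were followed in U2AF1 immunoprecipitates and across polysome gradients.

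PAR-CLIP marks protein contacts on RNA by feeding cells a photoreactive uridine: reads from crosslinked RNA carry T-to-C conversions, and overlapping reads with conversions form a cluster. U2AF1 is the small subunit of the U2AF heterodimer. Together with U2AF2, which holds the pyrimidine tract, it recognises the AG at the end of an intron and so helps to fix the 3' splice site. S34F, a recurrent cancer mutation in a zinc finger of U2AF1, is known for changing the preference for the base that precedes this AG. Mature mRNA has lost its introns, so contacts in its coding sequence lie outside the canonical intron-end target. The cytoplasm lists were not limited to mature mRNA. Clusters within introns made up 34.1% of the S34F cytoplasm and 28.9% of the WT cytoplasm list, against 29.8% in WT chromatin. Contacts on unspliced and on mature RNA were not separated here.

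The cells used for PAR-CLIP were Flp-In-293, a line derived from HEK 293 with an integration site for transgenes, which expressed FLAG-HA-tagged S34F or WT U2AF1. Each list was made by the submitters from both of its libraries (A and B), so the 3 lists have no replicate check, and the Wilson intervals below cover counting error only. RNA immunoprecipitation (RIP) and gradients used human bronchial epithelial cells (HBEC) in an S34F, a frameshift (FS) and a WT line. The labels give neither the FS allele nor the zygosity of either mutation and name no separate cultures. For RIP, each line gave 1 library of the U2AF1 IP, 1 of an IgG precipitate and 1 of Cytosol, with 2582141 to 29769968 counts. For the gradients, each line gave 1 library from monosomes, 1 from each fraction of 2 to 7 ribosomes and 1 from pooled 8-10 ribosomes, with 2440145 to 13367574 counts. The 3 lines were the only replicates of a contrast. Differences in level between the lines were fitted, with the line as a block. The p-values therefore measure how unevenly groups differ from line to line, with the spread estimated over all libraries of the assay. Differences between the lines could be those of a clone as well as of the allele. In the RIP and gradient libraries 6 to 7 of 7 basal airway markers were at 1 CPM (counts scaled to a common library size) or more, and summed to 6503 to 51075 CPM. Markers of other cell types summed to at most 212 CPM for blood, 101.4 for neural cells, 40.6 for fibroblasts, 36.4 for endothelium, 11.7 for secretory and 6.80 for ciliated airway cells, and their part in the results was not tested.

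The sequences of strongly covered short clusters are printed here because they show both kinds of coding contact, with and without the T-rich stretch before AG that is known from intron ends. Those shown are, in each list, among the clusters of at most 30 bases with most reads. Each runs 5' to 3' on the strand of the gene, in lower case with every NAG trinucleotide (N is any base) in capitals. The genome build is not given in the sources used here, and coordinates are those of the deposited lists.
In S34F cytoplasm, the ubiquitin ligase gene RNF10 had 156 reads at chr12:120990474-120990499 (+), the chaperonin subunit gene CCT8 146 reads at chr21:30433580-30433608 (-), and HNRNPA2B1, which encodes an hnRNP protein, 141 reads at chr7:26236941-26236965 (-).
RNF10: ttaacAAGgaactctttttaCAGgcc
CCT8: AAGAAGgaaataaaaacgttggatTAGat
HNRNPA2B1: agttGAGccaaaacgtgctgTAGca
In WT cytoplasm, CYTH2, which encodes an exchange factor for ARF GTPases, had 227 reads at chr19:48981812-48981838 (+), the terminal uridylyltransferase gene TUT1 194 reads at chr11:62342589-62342612 (-), the oligopeptidase gene THOP1 143 reads at chr19:2790598-2790627 (+), the replicative helicase gene MCM3 128 reads at chr6:52130881-52130907 (-), and the cyclin gene CCNL1 116 reads at chr3:156877205-156877234 (-).
CYTH2: acgCAGGAGGAGAAGgacGAGtggatc
TUT1: atttcttaCAGgttttcctccctc
THOP1: AAGgcgctggccgatgtgGAGgtcacctac
MCM3: AAGgaatccCAGaAAGtgGAGttGAGt
CCNL1: gttttttctactccaaatctttcgtcaaac
In WT chromatin, the proteasome subunit gene PSMD1 had 1333 reads at chr2:231936905-231936934 (+), the tetraspanin gene CD63 677 reads at chr12:56119995-56120020 (-), NELFCD, which encodes a subunit of the negative elongation factor, 529 reads at chr20:57564644-57564672 (+), DENND5A 495 reads at chr11:9215098-9215126 (-), and DOPEY1 361 reads at chr6:83863728-83863754 (+).
PSMD1: cttaattttctTAGatgatcctCAGgctgt
CD63: acaCAGattggGAGaaaatcccttcc
NELFCD: aatttTAGatgGAGGAGAAGaaaaccttg
DENND5A: atttctTAGatgctcctgttccatacctg
DOPEY1: agtttctttCAGatggatgcctcttgt
In the chromatin sequences printed, apart from CD63, a T-rich stretch ran into the first TAG or CAG. The sequences from cytoplasm were mixed: TUT1 and RNF10 had such a stretch, CYTH2 and MCM3 were purine-rich, and CCNL1 held a T-rich stretch with no NAG.

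Over whole lists, the motifs TTTNCAG and TTTNTAG, a strict form of such a stretch, were uncommon in coding clusters. Among clusters of at most 30 bases, searched on their own strand, TTTNCAG or TTTNTAG stood in 2.00% of 5006 coding clusters in S34F cytoplasm, 1.24% of 5471 in WT cytoplasm and 2.06% of 16601 in WT chromatin. The same motifs stood in 9.44%, 5.70% and 9.46% of all clusters of that length in those lists, and in 25.8%, 21.3% and 22.1% of those that cross from an intron into coding sequence (the authors' class intron-coding). In chromatin the share in coding clusters was 1.36% at 4 to 9 reads and 2.25% at 100 reads or more, where 4 of 178 clusters held a motif. None of the chromatin sequences printed above holds either motif, although all but CD63 show a T-rich stretch before TAG or CAG. These shares therefore miss part of such stretches. How typical the printed sequences are of their class was not tested. Purine hexamers were searched the same way. GAAGAA stood in 6.93% of coding clusters in S34F cytoplasm, 5.03% in WT cytoplasm and 7.12% in chromatin, against 4.74%, 3.51% and 6.40% of all clusters. Intron clusters held it in 4.88%, 3.18% and 7.07%, so in chromatin they were near coding clusters. Clusters that cross from coding sequence into an intron held it in 8.42%, 4.08% and 9.22%. TTTTT stood in 2.78%, 2.80% and 2.67% of coding clusters, against 12.5%, 11.7% and 11.2% of all; its matches may overlap those of the motifs that end in AG. GGAGGA, whose matches may overlap GAAGAA, stood in 3.08%, 4.15% and 2.54% of coding clusters and 2.25%, 2.67% and 1.94% of all.

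The base before AG also differed between coding and intron-coding clusters. In S34F cytoplasm, AAG made up 37.0% of the NAG trinucleotides in coding clusters, GAG 31.8%, CAG 24.7% and TAG 6.48%. In WT cytoplasm these shares were 33.6%, 35.1%, 25.5% and 5.83%, and in WT chromatin 39.1%, 26.9%, 26.3% and 7.63%. CAG, the most frequent ending of human introns, was 24.7% (95% Wilson interval 24.1 to 25.3) in S34F cytoplasm and 25.5% (24.9 to 26.1) in WT cytoplasm, and these intervals overlapped. Those of TAG overlapped too (6.14 to 6.83 and 5.53 to 6.15). The intervals of AAG (36.3 to 37.7 and 33.0 to 34.2) and of GAG (31.2 to 32.5 and 34.5 to 35.7) did not. This shift was not particular to coding clusters. In intron clusters of S34F and WT cytoplasm AAG was 32.4% and 28.8%, and GAG 26.4% and 30.3%. In 3' UTR clusters AAG was 31.8% and 29.2%, and GAG 27.4% and 29.6%. Intron-coding clusters had AAG at 28.6% in both. A made up 27.9% and 25.5% of the bases of coding clusters in S34F and WT cytoplasm. In intron-coding clusters CAG reached 37.2% in S34F cytoplasm, 33.2% in WT cytoplasm and 32.6% in WT chromatin, and TAG 11.7%, 14.6% and 17.2%. Coding sequence differs from intron sequence in base content and holds no in-frame TAG, and the part of base content in these shares was not tested. T made up 24.2%, 23.2% and 24.8% of the bases of coding clusters and 33.2%, 32.3% and 31.8% of those of intron-coding clusters in S34F cytoplasm, WT cytoplasm and WT chromatin.

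**Figure D1:**
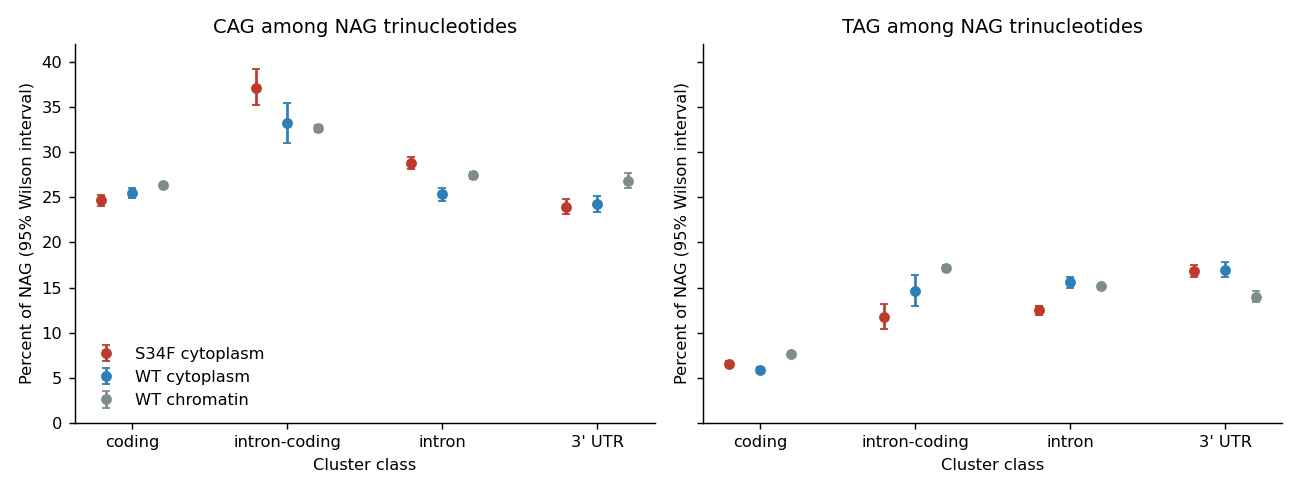
CAG (left) and TAG (right) as percent of the NAG trinucleotides in clusters of 4 classes (x axis), for the lists from S34F cytoplasm, WT cytoplasm and WT chromatin; points are shares and bars are 95% Wilson intervals for counting error. TAG lies between 5.83% and 7.63% in coding clusters and at 11.7% or more in the other 3 classes of each list.

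The coding class took a smaller share of the S34F cytoplasm list than of either WT list. It was 26.5% (26.0 to 27.0) of clusters in S34F cytoplasm, 32.5% (31.9 to 33.0) in WT cytoplasm and 32.6% (32.3 to 32.9) in WT chromatin. Among clusters with at least 10 reads it was 32.8% in S34F cytoplasm, 42.2% in WT cytoplasm and 32.9% in WT chromatin, so the difference from chromatin was not seen there. By reads, 18.4% of cluster reads in S34F cytoplasm, 29.8% in WT cytoplasm and 26.1% in WT chromatin were coding. Reads in clusters without annotation took 27.3% in S34F cytoplasm, 19.1% in WT cytoplasm and 3.88% in WT chromatin, and a share of one class depends on the others. Cytoplasm and chromatin differed most in the class at intron ends: intron-coding clusters made up 2.90% of clusters in S34F cytoplasm and 2.37% in WT cytoplasm, against 16.2% in WT chromatin, and 1.97% and 1.80% of reads against 28.4%. With 1 pooled list per group, none of these differences has a test.

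**Figure D2:**
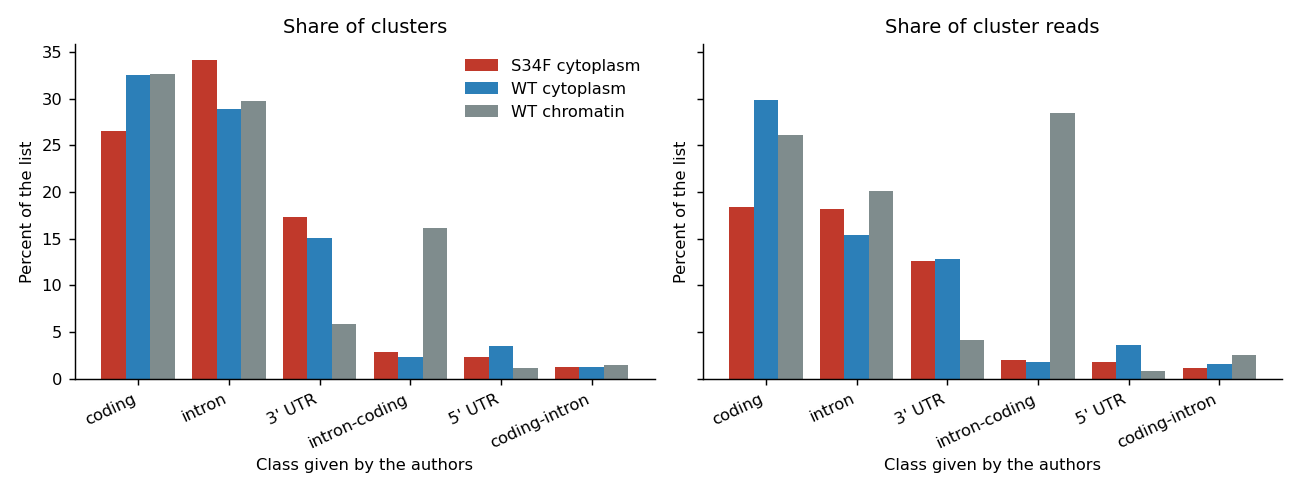
Share of clusters (left) and of cluster reads (right) by the authors' class, in percent of each list, for S34F cytoplasm, WT cytoplasm and WT chromatin. Coding is 26.5%, 32.5% and 32.6% of clusters, and intron-coding is high in chromatin alone among the 3 lists, at 16.2% of clusters and 28.4% of reads.

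Coding clusters from cytoplasm had fewer reads, though not fewer distinct reads, and were less converted than those from chromatin. All clusters together held 658110 reads in S34F cytoplasm, 526075 in WT cytoplasm and 4723555 in WT chromatin. The median coding cluster had 11 reads in S34F cytoplasm and 13 in WT cytoplasm, against 29 in WT chromatin, from 5, 5 and 4 distinct reads. The median T-to-C fraction, the authors' share of a cluster's reads with a conversion, was 0.667 in S34F cytoplasm and 0.636 in WT cytoplasm, against 1.0 in WT chromatin. Every read was converted in 23.1%, 22.1% and 52.4% of coding clusters. Intron clusters had a median fraction of 1.0 in all 3 lists, at 8 reads in S34F cytoplasm, 7 in WT cytoplasm and 23 in WT chromatin. This median is at the upper limit of the fraction and cannot show a difference. The lower quartiles of intron clusters were 0.75, 0.833 and 0.963 in these lists. Every read was converted in 57.7%, 66.3% and 72.9% of them, so intron clusters were also less converted in cytoplasm. By the median, clusters in 3' UTRs lay between coding and intron clusters in cytoplasm, at 0.818 in S34F and 0.800 in WT, and at 1.0 in WT chromatin.

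The 10 clusters with most reads in each cytoplasm list all lay below the median T-to-C fraction of that list. In S34F cytoplasm the first was in MT-ND4, a mitochondrially encoded subunit of respiratory complex I, with 889 reads and a T-to-C fraction of 0.472, followed by the histone gene HIST1H4H with 464 reads at 0.400. MT-ND2, MT-CO2 and MT-ND6, also mitochondrially encoded, followed with 330 reads at 0.314, 296 at 0.572 and 279 at 0.2. After them came the nuclear RNA-binding protein genes HNRNPH1 and ZRANB2 with 278 reads at 0.645 and 272 reads at 0.249. In WT cytoplasm HAX1, which encodes a mitochondrial anti-apoptotic protein, had 295 reads at 0.0678, PNN, which encodes a splicing-associated protein, 294 at 0.283, ZRANB2 265 at 0.317 and the ribosomal protein gene RPL35 261 at 0.103. In chromatin PSMD1 had 1333 reads at 0.966, LEMD3, which encodes an inner nuclear membrane protein, 1189 at 0.962 and BRWD1, which encodes a bromodomain protein, 1048 at 0.867. Clusters in mitochondrially encoded genes, whose RNA lies inside mitochondria, numbered 22 in S34F cytoplasm, 5 in WT cytoplasm and 38 in WT chromatin, with 2.92%, 0.587% and 0.120% of coding reads. The part of RNA that was not crosslinked in these read numbers was not tested.

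Coding positions were shared in part between the lists. The overlap of other cluster classes was not computed, so these shares cannot be called a trait of coding clusters. Of S34F cytoplasm coding clusters, 981 (12.8%, Wilson interval 12.1 to 13.6) overlapped a WT cytoplasm cluster by at least 1 base on the same strand, and 1002 (11.6%, 10.9 to 12.3) of WT cytoplasm coding clusters overlapped an S34F cytoplasm cluster. More overlapped chromatin: 2872 (37.6%) of S34F cytoplasm and 2641 (30.5%) of WT cytoplasm coding clusters, which is a list more than 3 times as long. Partners in chromatin were coding in 74.3% of pairs for S34F cytoplasm and 75.9% for WT cytoplasm, and intron-coding in 17.6% and 16.5%. Clusters of S34F cytoplasm that overlapped WT cytoplasm had a median of 15 reads against 10 for those that did not, and a median T-to-C fraction of 0.545 against 0.692. At these depths an absent partner does not show an absent contact.

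Genes were shared more than positions. Coding clusters lay in 3593 genes in S34F cytoplasm, 4214 in WT cytoplasm and 6152 in WT chromatin, and 2374 genes had them in both cytoplasm lists, which is 66.1% of the S34F and 56.3% of the WT genes. All 3 lists shared 2180 genes, 1169 genes had coding clusters in cytoplasm only, and 1888 in chromatin only. A single cluster was the rule in cytoplasm, in 53.2% of genes in the S34F list and 54.9% in the WT list, against 32.2% in WT chromatin. Along the genomic span of a gene, introns and UTRs included, the stretch from 80% to 100% held 24.2% of coding clusters in S34F cytoplasm, 25% in WT cytoplasm and 26.5% in WT chromatin, against 14.7%, 16.0% and 11.5% in the first 20%. Where coding sequence itself lies in these spans was not tested. Within 100 bases downstream of an intron-coding cluster of chromatin, between midpoints, lay 17.1%, 14.1% and 11.9% of coding clusters of S34F cytoplasm, WT cytoplasm and WT chromatin. At 0 to 50 bases it was 8.63%, 7.03% and 3.88%, and at 50 to 100 bases 8.49%, 7.11% and 8.03%. In chromatin both kinds of cluster come from the same list, so the intron-coding cluster itself takes the nearest positions. The chromatin share is therefore not comparable with those of cytoplasm.

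A single gene held up to 34 coding clusters in S34F cytoplasm, 28 in WT cytoplasm and 100 in WT chromatin. SON, which encodes a nuclear speckle scaffold, had 34 coding clusters in S34F cytoplasm, 19 in WT cytoplasm and 42 in WT chromatin, or 3.17, 1.77 and 3.91 per kilobase of transcript. SRRM2, another speckle scaffold gene, had 20, 20 and 51. The nucleoporin gene NUP205 had 24, 11 and 39 and the nuclear export receptor gene XPO1 20, 6 and 24, while the DNA repair kinase gene PRKDC had 17, 28 and 66 and the ubiquitin ligase gene UBR4 13, 22 and 100. XPO1 and NUP205 thus had more clusters in S34F than in WT cytoplasm, and PRKDC, UBR4 and the fatty acid synthase gene FASN (7 in S34F cytoplasm, 17 in WT cytoplasm) fewer. In chromatin the cytoskeletal linker genes MACF1 and DST followed UBR4 with 96 and 93 clusters, against 7 and 12 in S34F cytoplasm and 7 and 11 in WT cytoplasm. IRS4, which encodes an insulin receptor substrate, had 21 in S34F cytoplasm and 15 in WT cytoplasm, the highest density of these genes at 5.41 and 3.87 per kilobase. In HBEC its mRNA was near 0, at 8.13 CPM in the S34F IP and at most 0.117 CPM in the IPs of the FS and WT lines, so it could not be followed there. U2AF1 itself had 1 coding cluster in S34F cytoplasm (90 reads), 2 in WT cytoplasm (95 reads) and 1 in WT chromatin (105 reads); the transgene carries this sequence too. ACTB and GAPDH, abundant housekeeping mRNAs, had 3 and 2 in S34F cytoplasm, 2 and 1 in WT cytoplasm and none in WT chromatin.

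Genes of 12 lists were followed, beside a background of 11612 genes tested in RIP, of which 28.5% had a coding cluster in S34F cytoplasm and 33.0% in WT cytoplasm. Of 79 ribosomal protein genes, which make short abundant mRNAs, 22 had a coding cluster in S34F cytoplasm and 21 in WT cytoplasm. Of 45 translation factor genes it was 31 and 31, of 37 SR and hnRNP protein genes 29 and 28, and of 27 cell cycle genes 26 and 26. Nuclear transport genes carried 131 clusters in S34F cytoplasm and 95 in WT cytoplasm over 18 of 20 genes each. Of 29 extracellular and membrane protein genes, 8 and 10 had one. The ribosomal and extracellular lists thus lay near the background share, and the part of mRNA length and level in these counts was not tested. NPM1, which encodes nucleophosmin, had no coding cluster in either cytoplasm list and 1 of 8 reads in WT chromatin.

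Regions with a coding cluster in both cytoplasm lists were compared by their reads. There were 907, in 710 genes. Clusters were called separately in each list and their borders differ, so a ratio of reads also follows how much was called: the regions covered 30602 bases at 0.632 reads per base in S34F cytoplasm and 32777 bases at 0.773 reads per base in WT cytoplasm. Scaled to the reads in all clusters of each list, the median log2 ratio of S34F to WT reads was -0.71 and 230 regions were above 0; scaled to the reads in coding clusters, the median was -0.013 and 448 were above 0. In the 652 regions whose lengths differed by at most 1.5 times, the medians were -0.64 and 0.05. Directions near the middle therefore turn with the scaling. Among the 79 regions with at least 100 reads summed, the chromatin remodeler gene CHD1 had 154 reads over 31 bases in S34F against 85 over 32 bases in WT cytoplasm (log2 0.53, or 1.23 with coding scaling). The nucleolin gene NCL had 105 reads over 61 bases in S34F against 53 over 71 bases in WT cytoplasm (0.66 or 1.36). CCNL1, whose cluster in WT cytoplasm is printed above, went the other way, with 23 reads over 26 bases in S34F against 116 over 30 bases in WT cytoplasm (-2.66 or -1.96). These 3 regions, chosen after their lengths were seen, had clusters of similar length in both lists, and none of the differences has a test.
The pair of clusters in TPR, a nuclear basket gene, with 72 reads in S34F and 51 in WT cytoplasm, shows how far borders shift at a shared region, at chr1:186313511-186313537 (-) in S34F and chr1:186313514-186313542 (-) in WT.
TPR, S34F cytoplasm: atcttggGAGgaAAGAGAGAGaatgtt
TPR, WT cytoplasm: aAAGcatcttggGAGgaAAGAGAGAGaat
Both carry the same purine-rich core.

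Whether mRNAs with coding clusters are recovered with U2AF1 in HBEC was asked by comparing the U2AF1 IP with IgG and with Cytosol. Of 7321 genes, 6400 passed the filter on low counts. In IP against IgG, edgeR's quasi-likelihood test, with Benjamini-Hochberg adjustment and a threshold of 0.05, called 0.224% of 11612 genes higher and 1.12% lower; of the genes with coding clusters 20 were higher and 64 lower, or 0.313% and 1.00%. Their median log2 fold was 0.08, against -0.04 for genes without a coding cluster and 0.03 for all. In IP against Cytosol, 0.491% of genes were called higher and 0.0431% lower, and of the genes with coding clusters 24 were higher (0.375%) and 2 lower (0.0312%), at a median of -0.04 against -0.07 for all. The shares lay near the background in both comparisons. Genes without a coding cluster were higher in 0.115% and lower in 1.27% against IgG, and in 0.633% and 0.0576% against Cytosol. Protein-coding genes were also split into 3 equal groups by mean CPM. From lowest to highest, medians with and without a cytoplasm cluster were 0.58 and 0.28, 0.20 and 0.04, and -0.08 and -0.14 against IgG. Against Cytosol they were 0.13 and -0.02, 0.13 and 0.0006, and -0.17 and -0.16. These differences were not tested. Both comparisons share the IP libraries, and the spread was wide (biological coefficient of variation 69.8%). The calls depended on the fit: against IgG, DESeq2 called 135 of these genes higher and 199 lower, edgeR without the WT line 1 and 8, and edgeR without the line as a block 0 and 17. Against Cytosol edgeR without the FS line called 14 higher, and DESeq2 47 higher and 37 lower. The medians did not climb with the number of clusters: in IP against IgG they were -0.01, 0.09, 0.08, 0.07 and 0.01 at 0, 1, 2 to 3, 4 to 9 and 10 or more cytoplasm clusters.

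Of the 10 genes with a cytoplasm coding cluster named as highest in the IP against IgG, CCNI alone also passed the test against Cytosol. DNAJA2, which encodes an HSP40 cochaperone, had 47.4, 45.3 and 60.2 CPM in the IP of the S34F, FS and WT lines, against 8.28, 1.69 and 9.20 CPM in IgG (log2 fold 2.97, SE 0.611, edgeR adjusted p = 0.0237). The groups did not overlap. Cytosol stood at 43.8, 30.4 and 38.4 CPM, for a log2 fold of 0.43 in IP against Cytosol (edgeR adjusted p = 0.933). CDC42, a small GTPase gene, had 105, 103 and 114 CPM in the IP, against 34.9, 31.7 and 34.1 CPM in IgG (1.5, SE 0.316, edgeR adjusted p = 0.0258). Its Cytosol values were 105, 95.5 and 99.6 CPM. HIPK3, a kinase gene, had 179, 154 and 274 CPM in the IP, against 81.7, 42.2 and 70.4 CPM in IgG and 104, 63.1 and 93.4 CPM in Cytosol. Its log2 fold against Cytosol, 1.19, was larger than that of CCNI but did not pass the test (edgeR adjusted p = 0.102). PRPS2, a phosphoribosyl pyrophosphate synthetase gene, likewise had 1.09 against Cytosol (edgeR adjusted p = 0.728), with the IP above Cytosol in every line. CCNI, a cyclin gene, was higher against both: 625, 537 and 894 CPM in the IP, against 247, 206 and 408 CPM in IgG and 397, 216 and 300 CPM in Cytosol. Its log2 folds were 1.10 (SE 0.224, edgeR adjusted p = 0.0227) against IgG and 1.13 (SE 0.225, edgeR adjusted p = 0.0243) against Cytosol. CCNI had 2 coding clusters in S34F cytoplasm with 31 reads, none in WT cytoplasm and 1 in WT chromatin with 39 reads.

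**Figure D3:**
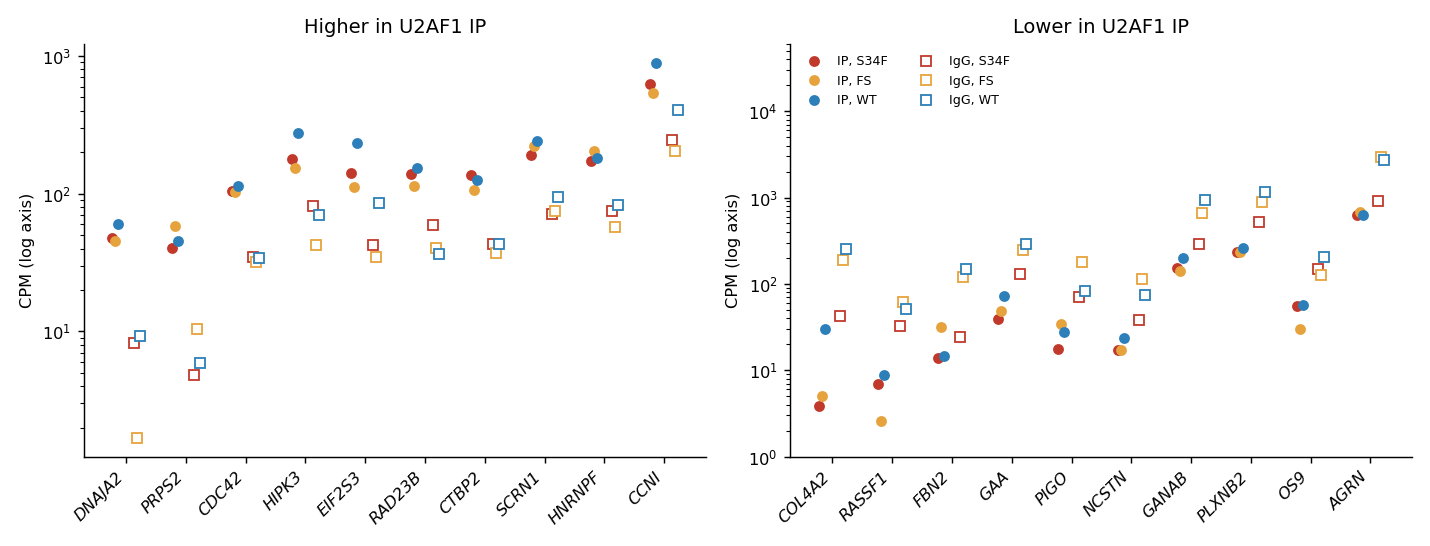
CPM in the U2AF1 IP (filled circles) and in IgG (open squares) of the S34F, FS and WT lines for genes with a cytoplasm coding cluster, on a log axis; the 10 highest (left) and 10 lowest (right) log2 folds that passed the test in IP against IgG. In COL4A2 the IP lies at 3.87 to 30 CPM and IgG at 42 to 256 CPM.

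Genes lower in the IP than in IgG included many of secreted and membrane proteins, whose mRNAs are translated at the endoplasmic reticulum. Of 11 extracellular and membrane protein genes with a cytoplasm coding cluster, 7 fell and none rose, also at an unadjusted p under 0.05 and in DESeq2 (9 lower each), and the median log2 fold was -1.37. The whole list, with or without clusters, gave 18 of 28 lower at a median of -1.40. Against Cytosol 1 of the 11 was lower, COL4A2, at a median of -0.28. COL4A2, a basement membrane collagen gene, had 3.87, 5.05 and 30 CPM in the IP of the S34F, FS and WT lines, against 42, 187 and 256 CPM in IgG (-4.07, SE 0.513, edgeR adjusted p = 0.001). SLC3A2 and FN1, genes of an amino acid transporter chain and of fibronectin, fell by 1.70 and 1.69 on the log2 scale (edgeR adjusted p = 8.90e-04 and 0.00110). The chaperone genes of the endoplasmic reticulum HSPA5 and PDIA4 fell too (-1.36 and -1.25, edgeR adjusted p = 0.00362 and 0.0367), out of 28 chaperone genes with 1 higher and 2 lower. GANAB, which encodes a glucosidase of that compartment, had 153, 140 and 201 CPM in the IP, against 287, 653 and 929 CPM in IgG and 230, 261 and 263 CPM in Cytosol. For GANAB the IgG libraries stood above Cytosol in all 3 lines; of the 11 extracellular and membrane genes, 4 were called higher in IgG against Cytosol, a comparison in which 0.663% of all genes were higher and 0.0172% lower.

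Of the 10 genes named as highest in the IP against Cytosol, 7 stood higher still in IgG in every line. DONSON, a replication factor gene with 4 coding clusters in S34F cytoplasm and 1 in WT cytoplasm, had 1575, 2585 and 2153 CPM in the IP of the S34F, FS and WT lines, against 138, 393 and 220 CPM in Cytosol. In IgG it had 2566, 3980 and 5993 CPM. Its log2 fold was 3.13 in IP against Cytosol (edgeR adjusted p = 1.93e-06) and 4.26 in IgG against Cytosol (edgeR adjusted p = 3.01e-08), and -1.13 in IP against IgG (edgeR adjusted p = 0.0168). ACVR2B, DBT, ARMC9, PTPN3 and CASC3 had the same order of IgG over IP over Cytosol, with log2 folds of 1.56 to 3.10 in IP against Cytosol and of -1.0 to -1.17 in IP against IgG, and DCAKD had it at 1.38 and -0.95 (edgeR adjusted p = 0.0103 and 0.0741). FUBP1, which encodes a single-stranded DNA-binding protein, had 582, 492 and 281 CPM in the IP, against 381, 894 and 923 CPM in IgG and 67.1, 74.3 and 64.3 CPM in Cytosol, so its IP lay above IgG in the S34F line. The first of the 10, AGO2, which encodes the small RNA effector Argonaute, went the other way, with 1620, 1486 and 344 CPM in the IP, against 144, 173 and 621 CPM in IgG and 51.3, 56.1 and 169 CPM in Cytosol. Its log2 fold was 4.08 in IP against Cytosol (edgeR adjusted p = 0.00245) and 2.21 in IP against IgG (edgeR adjusted p = 0.0953), and its IP lay below IgG in the WT line. CCNI, described above, was the other gene with the IP above both.

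Some ribosomal protein mRNAs rose in the IP. Of the 32 genes with a cytoplasm coding cluster, 4 were higher than in IgG (RPS3, RPL6 and RPL5 among them) and 6 higher than in Cytosol (among them RPS3, RPSA, RPL10A, RPL5 and RPL6), and the medians were 0.34 and 0.38. None was lower in either comparison, also at an unadjusted p under 0.05 or in DESeq2, which called 9 and 11 higher. In the whole list, with or without clusters, 9 and 12 of 77 rose at medians of 0.33 and 0.37. RPL6, with 1 coding cluster in S34F cytoplasm and none in WT cytoplasm, was higher by 0.71 against IgG and by 1.08 against Cytosol, with 0.59, 0.70 and 0.82 in the S34F, FS and WT lines against IgG. Translation factors gave 2 higher against IgG (EIF2S3 and EIF3F) and 1 against Cytosol (EIF3L) of 35. In SR and hnRNP proteins HNRNPF alone of 31 was higher against IgG, while cell cycle, glycolysis, tRNA synthetase, nuclear transport, histone and 3' splice site factor genes with clusters had no call in either comparison by this test. At an unadjusted p under 0.05, 12 of these 97 genes were higher and 8 lower against IgG, and 4 higher and 13 lower against Cytosol; DESeq2 called 1 higher and 3 lower, and 0 and 2.

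Genes with coding clusters were more often higher in 8-10 ribosomes than in monosomes, beside the share over all genes. In 8-10 ribosomes against monosomes, edgeR's quasi-likelihood test called 28.3% of 15945 genes higher and 21.6% lower; of 6997 tested genes with a coding cluster, 2974 (42.5%) were higher and 765 (10.9%) lower. Their median log2 fold was 0.64, against -0.76 for genes without a coding cluster and 0.08 for all. With clusters in both cytoplasm lists it was 0.80. By number of cytoplasm clusters the median was -0.48 at 0, 0.59 at 1, 0.72 at 2 to 3, 0.81 at 4 to 9 and 0.86 at 10 or more. Of the 2872 genes with a cytoplasm cluster that were called, 2805 had the same direction in all 3 lines.

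**Figure D4:**
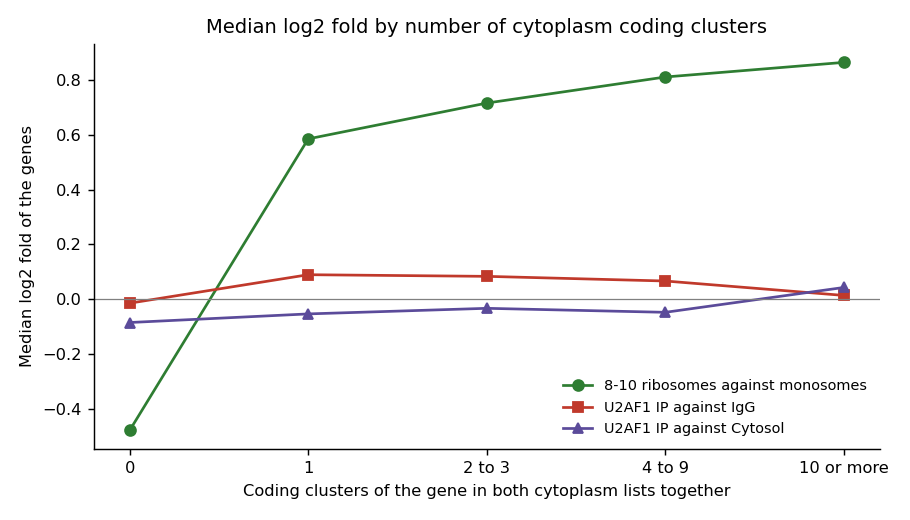
Median log2 fold of the genes tested (y axis) by their number of coding clusters in both cytoplasm lists together (x axis), for 8-10 ribosomes against monosomes, U2AF1 IP against IgG and U2AF1 IP against Cytosol. The gradient medians run -0.48, 0.59, 0.72, 0.81 and 0.86, while the IP medians stay between -0.08 and 0.09.

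Level, length and gene type moved with having a cluster. Genes with a cytoplasm coding cluster had a median mean level of 36.6 CPM against 18.9 CPM for all genes, and nearly all are protein-coding. Among protein-coding genes alone (by the RefSeq annotation), the median was 0.70 in 5239 genes with a cytoplasm cluster, of which 45.3% were higher, and -0.25 in 9328 without, of which 22.6% were higher. In 3 equal groups by mean CPM it was 0.44 against -1.29 in the lowest, 0.78 against 0.40 in the middle and 0.70 against 0.39 in the highest group. The difference was therefore smaller among well-expressed genes. Over all genes in 3 equal groups by transcript length, it was 1.11 against -0.03, 0.66 against -0.56 and 0.46 against -0.90, short to long. Clusters were mapped in Flp-In-293 and the gradients in HBEC, and no RNA level from Flp-In-293 was used, so a contact and a well-expressed mRNA cannot be told apart here.

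Of all tested genes with a cytoplasm coding cluster, 45.2% were higher in 8-10 ribosomes than in monosomes and 9.49% lower, and the lists are read beside these shares. Of 31 SR and hnRNP protein genes with a cytoplasm cluster, 22 rose and none fell (median 1.5), led by HNRNPD, which encodes an AU-rich element binding protein. HNRNPD had 91.1, 97.0 and 43.1 CPM in 8-10 ribosomes of the S34F, FS and WT lines, against 7.69, 11.5 and 5.80 CPM in monosomes (3.32, SE 0.358, edgeR adjusted p = 1.67e-06). The lowest 8-10 value lay above the highest monosome value. Of 28 chaperone genes 26 rose (1.46), with HSP90B1 at 2.31; of 27 cell cycle genes 25 rose (1.43), with the proliferation marker gene MKI67 at 2.07. Of 19 tRNA synthetase genes 17 rose and QARS, the glutaminyl-tRNA synthetase gene, fell by 2.17 on the log2 scale (edgeR adjusted p = 2.72e-05). Of 20 cytoskeleton genes 15 rose, of 13 glycolysis genes 10 and of 11 extracellular and membrane genes 8. Of 19 nuclear transport genes 9 rose, which alone of these lists is near the 45.2% of all genes with a cytoplasm cluster, and IPO7 fell.
Of 32 ribosomal protein genes 16 fell (median -0.91) and none rose, also without adjustment or in DESeq2, with RPS2 at -2.68 and RPSA at -2.53 (edgeR adjusted p = 1.32e-05 and 1.87e-05). Translation factors split: 20 of 35 rose, led by the scaffold gene EIF3A (2.43), and 6 fell, among them the poly(A)-binding protein genes PABPC4 (-2.73) and PABPC1 (-2.70) and the elongation factor gene EEF2 (-2.19). Among 3' splice site factors 5 of 12 rose, also near that share, including U2AF1 (1.73, edgeR adjusted p = 0.00192) and U2AF2 (1.47, edgeR adjusted p = 0.00122), and U2AF1L4, a U2AF1 paralog gene, fell by 1.05. The whole lists, with or without clusters, gave medians close to these: 1.45 for SR and hnRNP proteins, 1.41 for chaperones and -1.03 for ribosomal proteins.

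PARP6, an ADP-ribosyltransferase gene with 3 coding clusters in S34F cytoplasm, 5 in WT cytoplasm and 6 in WT chromatin, was the lowest of the well-expressed genes named. It had 12.5, 7.16 and 11.4 CPM in 8-10 ribosomes of the S34F, FS and WT lines, against 70.5, 168 and 163 CPM in monosomes (-3.48, SE 0.366, edgeR adjusted p = 1.34e-06). The groups did not overlap. ACTN2, COCH, ZNF536 and FAM184A were also among the 5 lowest, at 3.54 CPM or less in every monosome library. The chaperone activator gene AHSA1 (3.09), the dynein light chain gene DYNLL2 (3.07) and C21orf59 (3.01) were among the 5 highest, with 14.7 to 68.4 CPM in 8-10 ribosomes and 0.911 to 12.2 CPM in monosomes.

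The S34F line had the largest heavy share of these mRNAs. For genes with a cytoplasm coding cluster and at least 500 counts in every line, the median share of a gene's summed CPM in the 8-10 fraction was 19.5% in the S34F, 14.2% in the FS and 14.9% in the WT line. Genes without a coding cluster had 9.40%, 9.59% and 10.4%. The mean ribosome number, weighted by CPM with the pooled fraction counted as 9, had medians of 5.08, 4.88 and 4.80 in genes with a cytoplasm cluster, and of 4.76, 4.73 and 4.70 in genes without a coding cluster. Among protein-coding genes alone the medians without a cluster were 4.85, 4.81 and 4.80, so by this measure the WT line showed no heavier position of genes with clusters. S34F exceeded WT by a median of 0.33 ribosomes in genes with clusters in both cytoplasm lists, 0.29 in the S34F list, 0.08 in genes with WT cytoplasm clusters alone, -0.01 in genes without clusters and 0.08 in all genes. Each line has 1 library per fraction, so the difference between lines has no test, and a single deeper-eluting library cannot be told apart from the allele.

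**Figure D5:**
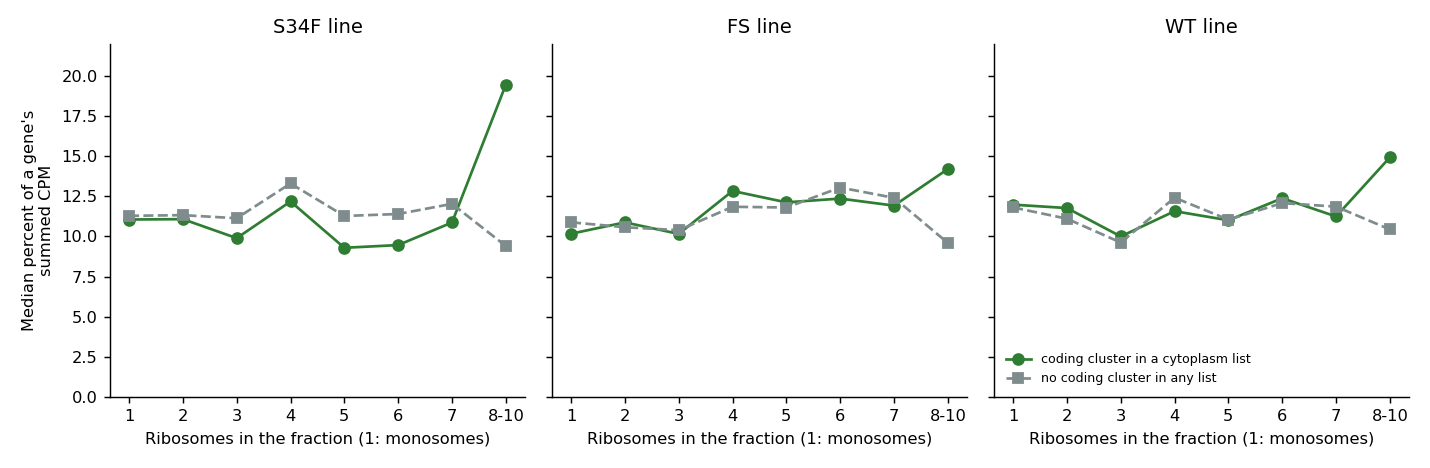
Median percent of a gene's CPM summed over the gradient (y axis) found in each fraction (x axis, ribosomes per mRNA), in the S34F, FS and WT lines, for genes with a cytoplasm coding cluster and genes without a coding cluster. The lines separate at 8-10 ribosomes, at 19.5% against 9.40% in S34F, 14.2% against 9.59% in FS and 14.9% against 10.4% in WT.

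Named genes spanned the range of this shift. CCT8, whose cluster in S34F cytoplasm is printed above, had a mean ribosome number of 6.20 in the S34F, 4.88 in the FS and 4.58 in the WT line. The leucyl-tRNA synthetase gene LARS exceeded WT by 1.46 in S34F, CHD1 by 1.27, XPO1 and NUP205 by 1.05 each and PRKDC by 0.85. XPO1 had 330 CPM in 8-10 ribosomes of the S34F, 210 of the FS and 91.4 of the WT line, and 130, 173 and 93.1 CPM in monosomes. SRRM2 lay lower in S34F by 0.51 ribosomes, U2AF1 by 0.46 and GAPDH by 0.42. PCBP2, an RNA-binding protein gene with a strongly covered cluster in WT cytoplasm, differed by 0.03. NPM1, without a cytoplasm coding cluster, was 1.39 higher in S34F, so a large shift was also seen without such a cluster.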

How the data were processed

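The authors deposited 3 PAR-CLIP cluster lists with read counts, distinct-read counts, a T-to-C fraction and an annotation class per cluster, each made from both libraries of its group per the labels; cluster caller and build are not given in the sources used here. RIP tables hold expected counts (26.3% of entries not whole) and RPKM values deposited by the authors (RPKM was not used), and the gradient table holds expected counts deposited per gene symbol (57.5% not whole). TopHat is the only tool named in the submitters' processing notes; counter, annotation and use of strand are not given, so overlapping and antisense genes may share reads.

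Counts were rounded, repeated symbols (119 in RIP, 45 in the gradient table) kept their first entry, and 28 names turned into dates were dropped. Clusters were matched by symbol, to 3545, 4168 and 6070 genes of the RIP tables for S34F cytoplasm, WT cytoplasm and WT chromatin. Counts were fitted with edgeR 4.0.16 (R 4.3.3, limma 3.58.1; filterByExpr, TMM, quasi-likelihood test, line as block) over all 9 RIP or all 24 gradient libraries, with Benjamini-Hochberg adjustment over all genes and a threshold of 0.05, and tested on simulated data. DESeq2 1.42.0 was an alternative, and bedtools 2.31.1 found same-strand overlaps. Libraries of a line share its cells, so the line pairs them; same-line deviations correlated at a median of 0.064 (0.024 to 0.133) in RIP and 0.346 (-0.251 to 0.765) in the gradients. A count of 0 allows 0.101 to 1.16 CPM in RIP and 0.224 to 1.23 CPM in gradients (3 counts). Wilson intervals are 95%.

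Named genes are, per list, the 10 clusters with most reads (also among those of at most 30 bases) and the 10 genes with most clusters; the 10 highest and 10 lowest shared cytoplasm regions of at least 100 reads; the highest and lowest folds past the threshold with 1 direction in all lines (10 each in RIP, 5 each in gradients); and members of 12 gene lists. Examples were chosen from these. Members and lists were chosen with earlier results of these data known. A few named genes are not reported here.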

Additional observations from a re-analysis of the deposited data

Results flagged for a closer look

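In 10 instances the S34F and WT lines moved in opposite directions by at least 1 on the log2 scale. They are among the genes picked for naming, and the share of all genes that moved in this way is not given. Each line has 1 library of each kind, so the difference was not tested, and single libraries decide these values. The spread in RIP was wide (biological coefficient of variation 69.8%). CPM values are given here for AGO2 and CXCL8 alone, so low counts in the others cannot be judged. In U2AF1 IP against IgG the log2 ratio was 3.41 in S34F against -1.11 in WT for AGO2, a small RNA effector gene (2.91 in FS), whose IP held 1620 CPM in S34F, 1486 in FS and 344 in WT and IgG 144, 173 and 621. PAPD7, a non-canonical poly(A) polymerase gene, had 1.83 in S34F against -1.12 in WT (1.24 in FS), ENAH, an actin regulator gene, 1.75 against -1.51 (-0.12 in FS), and C21orf59 1.65 against -1.59 (0.72 in FS). The opposite order was found for COG5, a Golgi complex gene (-3.86 in S34F against 3.52 in WT, -1.99 in FS), CCNL1 (-3.86 against 1.86, -1.46 in FS) and the kinesin gene KIF23 (-2.69 against 2.64, 0.03 in FS).

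In U2AF1 IP against Cytosol, PNN had -1.36 in S34F against 2.30 in WT (1.06 in FS) and PNISR, another splicing-associated gene, -1.86 against 1.02 (0.49 in FS). In 8-10 ribosomes against monosomes, CXCL8, the interleukin-8 gene, which had no coding cluster, had 1.70 in S34F against -1.42 in WT (-1.36 in FS); it stood at 0.202 to 5.22 CPM in all 6 of these libraries.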

How the results depend on the processing

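Of the alternative values 90 stayed within their spread or count limit, 75 moved beyond it or had no spread to judge by and none reversed a call; the cause was not tested, apart from alternatives that used fewer clusters, genes or libraries. For S34F cytoplasm, WT cytoplasm and WT chromatin, the coding share was 29.3%, 38.5% and 36.6% at 3 or more conversion positions, 18.4%, 29.8% and 26.1% by reads, 55.1%, 60.9% and 78.1% of exonic classes, and, chosen after seeing the data, 30.9%, 40.9% and 34.1% at 3 or more distinct reads; at 10 or more reads it was 32.8%, 42.2% and 32.9%, so S34F cytoplasm then lay below WT cytoplasm but not below chromatin. The median T-to-C fraction was 0.5, 0.5 and 0.977 at 10 or more reads and 0.611, 0.56 and 0.923 at 3 or more positions, and median reads 16, 17 and 32, and 15, 20 and 44. CAG weighted by reads was 24.7% in WT cytoplasm and 25.9% in chromatin. Overlap over at least 50% of both clusters was 9.51% (S34F with WT cytoplasm), 8.58% (WT with S34F), 15.8% (WT cytoplasm with chromatin) and 4.15% (reverse); with coding partners 12.0%, 10.6%, 23.5% and 6.85%; at 10 or more reads 14.9%, 32.3% and 5.76% where it moved. The shared-region median was -0.013 with coding scaling, -0.56 per covered base and -0.64 in regions of like length, all chosen after seeing the data.

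In IP against IgG, DESeq2 called 135 genes with coding clusters higher and 199 lower, and no filter on low counts 46 and 131. Leaving out 1 line gave 1 to 12 higher and 8 to 80 lower, fewest without WT. Without genes listed at 0 once but reaching 50 CPM elsewhere (chosen after seeing the data) it was 32 and 100. In IP against Cytosol DESeq2 gave 47 higher and 37 lower, no filter 43 and 26; leaving out 1 line gave 14 to 23 higher, fewest without FS, 1 to 2 lower and medians of -0.0838 to 0.0803; 1 was lower from the chromatin list or from clusters of 10 or more reads, and 8 without the isolated zeros; the sign of this median near 0 turned without S34F and without the block. In the gradient, 503 were lower with no filter (median 0.88), 480 to 608 with 1 line left out, and 498 among the cytoplasm lists. Without the line block that pairs the libraries, IP against IgG gave 0 higher and 17 lower, IP against Cytosol 12 higher, 0 lower and a median of 0.0618, and the gradient 1846 higher. Restricting to protein-coding genes, also chosen after seeing the data, is given beside the gradient result. Lines as replicates, 1 pooled list per group and different cells for clusters and libraries limit what these data can show.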
